A study of Rattus norvegicus with 2 samples.

Results

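The regions described here were the N6-methyladenosine (m6A) peaks whose gene name was provisional or taken from a sequence clone. They were chosen by name alone, as the rows of the deposited peak table whose name began with LOC, RGD, AABR or ENSRNOG followed by digits. There were 409 such peaks of 8512 listed (4.80%), under 285 names of 4212. The names fell into 131 LOC names with 192 peaks, 82 RGD names with 130, 68 AABR names with 82 and 4 ENSRNOG names with 5.

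The table came from primary hippocampal neurons of newborn (P0) Sprague-Dawley rats that were exposed to lead acetate for 48 h from day 12 in vitro and had received cytosine arabinoside (Ara-C), which kills dividing cells, on day 7. One sample label gives the dose as 5 mM and the study's design text as 5 µM, and the end of exposure is given as day 13 or day 14. One m6A immunoprecipitation library (IP) was set against 1 input library of the same exposed neurons. Neurons without lead were not analysed here. The values therefore describe exposed neurons and hold no effect of lead, and with 1 library of each kind no value has a replicate error. The table gave no read counts, so the depth behind each peak is unknown. Of 10 neuronal marker genes 7 had a listed peak, of 5 astrocyte markers 0, of 5 oligodendrocyte lineage markers 0, of 5 microglial markers 2 (Aif1 and C1qa) and of 5 vessel and fibroblast markers 1 (Col3a1). A gene absent from a peak list may still be expressed.

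In MeRIP-seq, fragments of RNA that carry m6A are pulled down with an antibody, and a peak is a region where the IP exceeds a local background. LOC names are placeholders for genes without an approved symbol, RGD names are those of the Rat Genome Database, and AABR names are those of the contigs from which an earlier rat assembly was built. Mammalian genomes also hold many retrocopies, which arise when a spliced messenger RNA is copied back into the genome, and the short, abundant messages of ribosomal proteins are among the best known sources of them. A retrocopy resembles the messenger RNA of its source without the introns, so short reads from one can match the other.

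The starts of 4 copies and of the genes they are named after show this likeness, and each is given as 60 bases of the RefSeq promoter table of build GRCr8, 30 before and 30 from the annotated start. Capitals mark the bases that fall in the best local alignment between the full 300-base windows of the copy and the named gene. The copy Rps23l1 (deposited as RGD1563570) lies at chr14:42399468-42399527 on the plus strand, and Rps23 at chr2:23814487-23814546 on the plus strand. Rps18l5 (LOC100362298) lies at chr5:118112568-118112627 on the plus strand, and Rps18 at chr20:4933715-4933774 on the plus strand. Rpl35l1 (LOC686074) lies at chr18:23434286-23434345 on the minus strand, and Rpl35 at chr3:43165892-43165951 on the minus strand. Ppial4d (LOC100360977) lies at chr14:21361349-21361408 and Ppia at chr14:85493186-85493245, both on the plus strand.
Rps23l1: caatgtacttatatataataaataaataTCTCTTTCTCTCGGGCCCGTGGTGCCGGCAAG
Rps23: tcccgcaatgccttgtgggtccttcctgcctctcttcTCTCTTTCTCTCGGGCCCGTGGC
Rps18l5: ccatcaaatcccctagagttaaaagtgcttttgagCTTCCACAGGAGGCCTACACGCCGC
Rps18: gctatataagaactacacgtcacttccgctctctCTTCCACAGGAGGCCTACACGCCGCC
Rpl35l1: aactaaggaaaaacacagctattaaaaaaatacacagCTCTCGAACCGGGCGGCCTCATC
Rpl35: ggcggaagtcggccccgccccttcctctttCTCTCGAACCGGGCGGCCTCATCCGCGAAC
Ppial4d: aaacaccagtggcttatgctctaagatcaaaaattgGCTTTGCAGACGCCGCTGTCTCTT
Ppia: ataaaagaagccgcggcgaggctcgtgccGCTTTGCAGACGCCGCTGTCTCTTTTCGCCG

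In these 4 pairs, which were chosen from 8 for their clear starts, the likeness began near the annotated start and reached at most 1 base before the start of the named gene. The Rps23l1 window shared 39 identical bases with that of Rps23, the Rps18l5 window 42 with Rps18, the Rpl35l1 window 42 with Rpl35 and the Ppial4d window 44 with Ppia. Windows for both members were found for 20 pairs of a copy and its named gene, and 8 of these shared a stretch of at least 30 identical bases. In 7 of the 8 the stretch began within 15 bases of the start of the copy, and in Tpt1l3, a copy of the translationally controlled tumour protein gene, it lay upstream of it. In Tpt1 and Rpl38, not shown, the stretch began 29 and 30 bases before the start of the named gene. The pairs without such a stretch included LOC100360491 with Rpl13, LOC100364427 with Rps12 and Rpl36l6 with Rpl36 (13, 16 and 12 identical bases). LOC100364427 and LOC100360491 had the highest folds of the ribosomal copies. LOC100360491 (6824 bases) and Rpl36l6 (7591) were also annotated as longer than Rpl13 (2624) and Rpl36 (5418).

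Fold enrichment, the ratio of the IP over the local background as the authors deposited it, had a median of 5.97 in provisional-name peaks and of 5.9 in the 8103 other listed peaks. The middle of both distributions lay in the same range, from 4.35 to 8.51 in provisional-name peaks and from 4.42 to 8.44 in the others (quartiles). A fold of 10 or more was reached by 78 provisional-name peaks (19.1%, exact Clopper-Pearson 95% interval 15.4 to 23.2%) and by 17.2% of the others, against 17.3% of all listed peaks. A peak p of at most 1e-10, from the deposited p-value score, was reached by 33.3% of provisional-name peaks and by 32.9% of the others, against 32.9% of all. These intervals and shares cover counting error only, and both shares lay near the background of the whole table.

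At the upper end the shares were further apart. A fold of 30 or more was reached by 16 provisional-name peaks (3.91%, interval 2.25 to 6.28%) and by 80 others (0.987%, interval 0.784 to 1.23%), against 1.13% of all listed peaks. Of the 31 listed peaks at 50-fold or more, 12 carried a provisional name, and of the 4 at 100-fold or more, 4 did. Among peaks on Ensembl transcripts only, 4.26% of provisional-name peaks and 0.905% of the others reached 30-fold. No test was made, since each share came from the same pair of libraries.

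**Figure D1:**
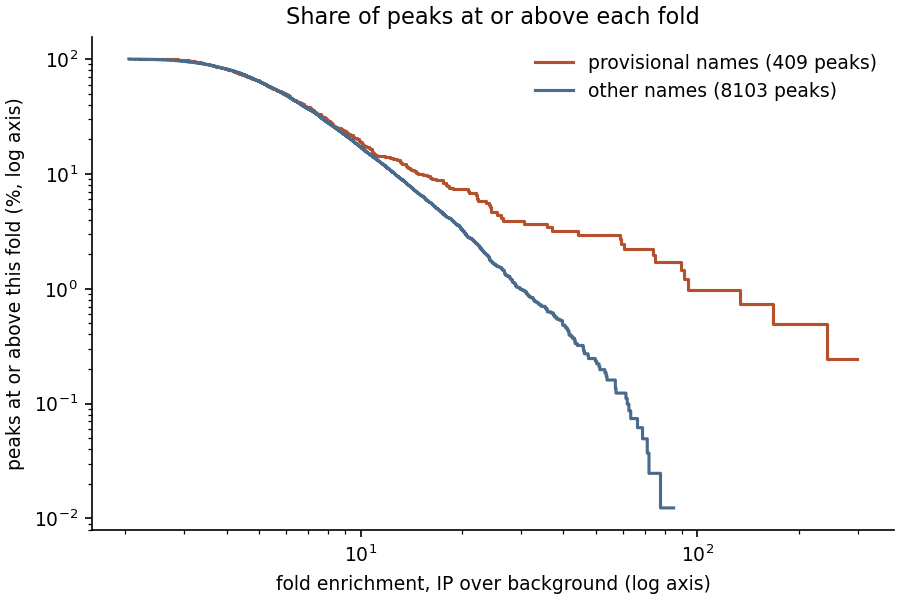
The share of peaks (per cent, log axis) at or above each fold enrichment (log axis) is drawn for 409 provisional-name peaks and 8103 other peaks. The curves run together up to about 10-fold and part above it, where the provisional-name curve goes on to 298.33 and the other ends at 84.97.

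The highest fold of the table lay in AABR06042582.1, a contig name with no description, at chr6:39264759-39265169 (411 bases), with a fold of 298.33. Positions of peaks are those of the deposited table, whose build is not named, and cannot be set against GRCr8. No other listed peak lay within 100 kb of it. LOC100364769, described only as similar to another rat clone product (LRRG00136), had a fold of 241.79 over 131 bases at chr1:224585664-224585794. This peak stood beside those of Ppfia1, a liprin scaffold protein gene, whose 7 peaks within 100 kb had folds of 3.75 to 10.42, and a second peak of LOC100364769 had 6.93. LOC499823 (LRRG00114) on chromosome 3 had 168.01 over 194 bases, and AABR06027146.1 on the same chromosome had 133.69 over 181 bases. These 4 names had no record in the current RefSeq gene table.

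LOC100909555 on chromosome 1, without a description, had a fold of 93.69 over 443 bases. LOC257642, described as a ribosomal RNA promoter binding protein, had 91.54 over 468 bases at chr14:46699273-46699740. The contig name AABR06078887.1 had 75.01 at chr14:46765539-46765949, the only other listed peak within 100 kb of LOC257642. That peak was 411 bases long, as was the strongest peak of the table on chromosome 6. LOC685793 (now 4930488N24Rikl) on chromosome 1 had 89.29 over 191 bases and a second, longer peak of 847 bases at 6.25.

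RGD1565611 is now Liat1, which encodes a ligand of the arginyltransferase ATE1, and had 74 over 293 bases of chromosome 10 and 5.07 over 566 bases. LOC500035 on chromosome 4 had 60.4 over 129 bases and lay within 100 kb of Bmt2, deposited as LOC500034. AABR06098525.1 on chromosome 19 had 59.16 over 2390 bases, and LOC100360491, similar to the ribosomal protein gene Rpl13, had 59.09 over 715 bases of chromosome 14. LOC687994 on chromosome 10 had 44.28, LOC100911422 (similar to Nudc) 36.93, LOC100364427 (similar to Rps12) 35.83 and AABR06056275.1 on chromosome 8 30.48. Of the 16 peaks at 30-fold or more, 11 thus had a name with no current record and no named gene to which it could be tied. The deposited score, 10 times the −log10 of the peak p, was 3100 in 15 of the 16 and 2195.9 in LOC100364427. A score of 3100 or more was held by 19 provisional-name peaks (4.65%) and 156 others (1.93%). At the other end, 120 provisional-name peaks (29.3%) and 28.2% of the others had a peak p above 0.05, and the deposited false discovery rate was 100% in every row.

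The lengths of the peaks differed as well. The median length was 198 bases in provisional-name peaks and 159 in the others, and 107 of them (26.2%, interval 22.0 to 30.7%) and 13.8% of the others spanned 400 bases or more. Of those shorter than 100 bases the shares were 14.7% in provisional-name peaks and 18.7% in the others. The longest were in LOC100910255, similar to the intermediate filament gene nestin (2834 bases, fold 7.35), AABR06098525.1 (2390 bases, fold 59.16) and RGD1566084 (2211 bases, fold 3.71). The shortest were in RGD1566270 (7 bases, fold 10.93), RGD1308147, now C17h7orf25 (15 bases, fold 3.09), and LOC100911233, similar to Ccar1 (33 bases, fold 6.79). Without the copies and like records described below, the median length was 185 and the share of 400 bases or more 19.8%.

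The source of the transcript also differed. Of provisional-name peaks, 305 (74.6%, interval 70.1 to 78.7%) were assigned to Ensembl transcripts, against 17.7% of the others, and the remaining 104 were on curated RefSeq messenger RNAs. The share was 80.2% for LOC names and 49.2% for RGD names, and every AABR and ENSRNOG peak was on an Ensembl transcript. Within Ensembl transcripts the median length was 213 bases in provisional-name peaks and 164 in the others. On RefSeq transcripts it was 167.5 bases in provisional-name peaks and 158 in the others. No description stood beside 165 provisional-name peaks (40.3%) and 0.839% of the others.

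Provisional-name peaks lay on all 20 autosomes and on chromosome X. Chromosome 1 held 64 (15.6% of provisional-name peaks and 11.6% of the others). Chromosome 19 held the highest share of provisional names among its listed peaks, 20 (8.58%), followed by chromosome 9 with 29 (7.55%) and chromosome 17 with 18 (6.92%). Chromosome 4 held the lowest share, 14 (2.66%), and chromosome 18 had 6 (2.74%). Several names with more than 1 peak entered these counts more than once: on chromosome 9 the 29 peaks belonged to 16 names, and on chromosome 19 the 20 peaks to 11.

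**Figure D2:**
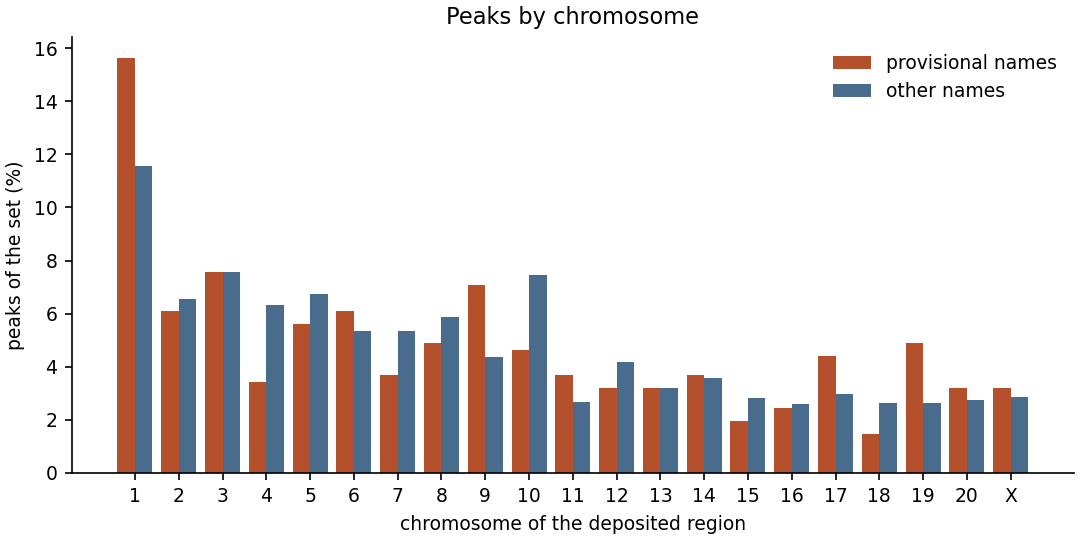
Bars give the per cent of the 409 provisional-name peaks (left bar) and of the 8103 other peaks (right bar) that lay on each chromosome. Chromosomes 1, 9 and 19 held larger shares of the provisional-name peaks, and chromosomes 4 and 10 smaller ones.

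The current RefSeq gene table resolved 135 of the 285 names (198 peaks), 70 through the gene ID, 57 through a synonym, 7 through the symbol and 1 through the transcript, while 150 names (211 peaks) had no record there. The records were protein-coding in 119 cases, pseudogenes in 14 and transcribed pseudogenes in 2. The current chromosome was that of the peak in 133 of 135. The exceptions were RGD1560633, now Rpl27al2, and RGD1562747, now Eola2. A gene symbol is now carried by 128 names (44.9%, exact 95% interval 39.0 to 50.9%). By gene type or by a description holding pseudogene, "similar to" or "-like", 141 names (49.5%, interval 43.5 to 55.4%) counted as copies. That wording is loose, since 58 of the 141 are now named genes: Virma was described as similar to a KIAA protein. The names were therefore sorted by current record and named gene into 85 now named genes, 30 copies of ribosomal protein genes, 22 copies of other genes and 32 like records. A like record had no current record but a description that named another gene. The rest were 68 contig names and 47 other names without a record, and 1 name, RGD1311745, that is still provisional.

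**Figure D3:**
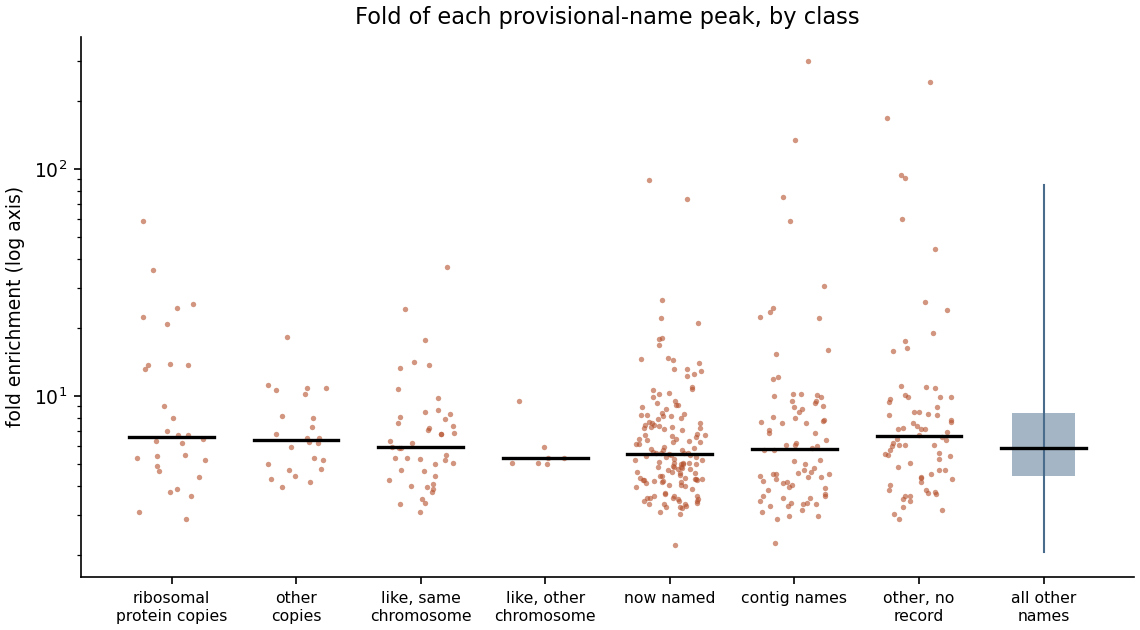
Each point is 1 provisional-name peak, placed by its class and its fold enrichment (log axis), and black bars are medians. The box and line at the right give the quartiles and range of 8103 other peaks. Medians by class ran from 5.35 to 6.65, and 4 points above 100-fold lay among names without a current record.

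Copies of ribosomal protein genes never had more than 1 peak. There were 30 names with 1 peak each, against 73.3% of all 285 provisional names and 53.8% of the 3927 other names with a single peak. These copies are short, with a median annotated gene length of 612.5 bases over 26 of them, against 24896 in now named genes. Peak number was not compared at equal gene length. The 30 copies stood for 22 ribosomal protein genes, and 28 were found on a chromosome other than that of the gene they resemble. Their median fold was 6.58 and their median length 404.5 bases, and 10 reached 10-fold (33.3%, interval 17.3 to 52.8%, against 17.3% of all listed peaks). With 1 value per gene, 24.1% of the other names reached 10-fold. All 30 copies were assigned to Ensembl transcripts.

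The strongest after the Rpl13-like and Rps12-like records were Rps23l1 (fold 25.45 over 502 bases of chromosome 14), Rpl8l1 (24.36 over 647 bases of chromosome 1), Rps23-ps11 (22.19 over 513 bases of chromosome 8) and Rpl38l1 (20.8 over 213 bases of chromosome 4). All encode or resemble proteins of the large (Rpl) or small (Rps) ribosomal subunit. Rpl36l6 followed at 13.86, Rps18l5 and an Rpl31-like record at 13.66 each and the pseudogene Rpl8-ps7 at 13.09. The named genes Rpl13, Rps23, Rpl8, Rpl38, Rpl36, Rps18 and Rpl31 were not listed. Of the 30 copies, 6 stood for a ribosomal protein gene listed under its own name. In 5 of the 6 the copy had the lower fold, such as Rpl35l1 at 9.06 against Rpl35 at 15.03 and Rpl23a-ps20 at 3.77 against Rpl23a at 13.08. The exception was the Rps12-like record at 35.83 over 502 bases, against Rps12 at 4.95 over 103 bases, both on chromosome 1. The Rps12 peak had a score of only 11.19, a peak p above 0.05.

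In many ribosomal copies the peak was nearly as long as the gene. Over the 26 with a current record on the peak's chromosome, the peak was 76.4% of the annotated gene length at the median, and 18 of 26 peaks came to at least 50% of it. The Rps23-ps11 peak was 99.6% of its 515-base gene and the Rps23l1 peak 96.9% of its 518-base gene. In now named genes the peak was 0.552% of the gene at the median over 144 peaks. Gene length here is the span in the genome, introns included, so these are not shares of a transcript. The peaks themselves had a median of 404.5 bases in ribosomal copies and 183 in now named genes. Annotated gene length had a median of 612.5 bases in these ribosomal copies, 2605.5 in the ribosomal protein genes they resemble and 24896 in now named genes. Deposited lengths and current gene lengths come from different annotations, and a peak of 726 bases on the 723-base Rpl12a-ps1 shows the small mismatch this allows.

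**Figure D4:**
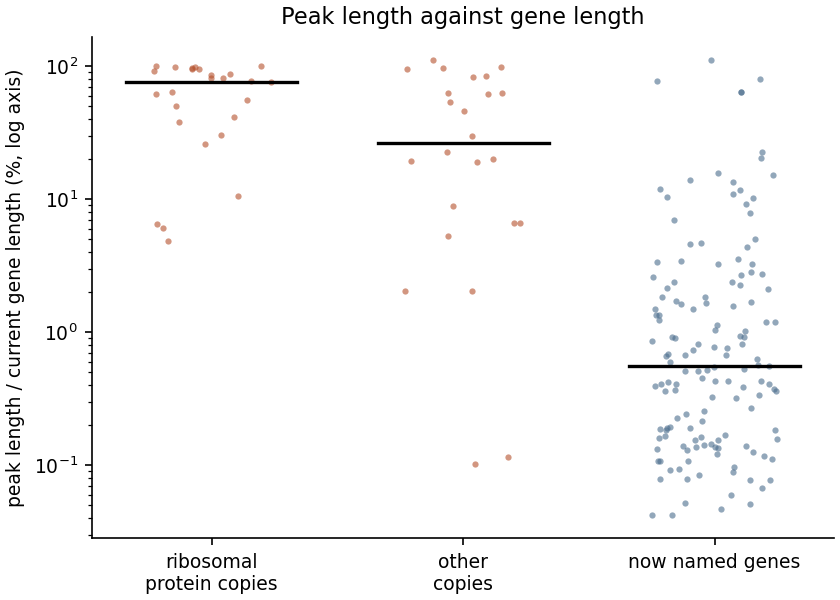
Each point is 1 peak, placed by its length as a per cent of the current annotated gene length, introns included (log axis), and bars are medians. Ribosomal protein copies had a median of 76.4%, copies of other genes 26.2% and now named genes 0.552%.

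Copies of other genes comprised 22 names and 24 peaks, with a median fold of 6.38 and a median length of 680.5 bases. They were recognised mainly by symbol, which also took in Fcgr2al1, Clec2d2l3 and Zfp764l1. Whether members of the class are retrocopies was not tested. Of the 24 peaks 18 spanned 400 bases or more. The highest fold was 18.26 in Ftl1l5, a copy of the ferritin light chain gene of iron storage. Next were the pseudogene Hmgn2-ps4, of a nucleosome-binding protein (11.17 over 1182 bases), the pseudogene 4930474N05Rikl1 (10.84), Tpt1l3 (10.8 over 813 bases), the pseudogene Nufip2-ps1 (10.61) and the pseudogene Pole3-ps3 (10.24). The peaks of Hmgn2-ps4, Ppial4d and Hmgb2l2 came to 96.4%, 99.0% and 94.4% of the current gene. Where a named gene had several listed peaks, its highest fold was taken. Of 10 copies whose named gene was listed, 1 had the higher fold. This was the pseudogene Srek1ip1-ps1 at 6.8, against a peak listed as Srek1ip1 at 4.86 (score 8.61, a peak p above 0.05). That peak lay on chromosome 7, 1.754 kb from the peak of the pseudogene, whereas the current table places Srek1ip1 on chromosome 2, so the comparison is not one with the locus of the gene. The peaks listed as Myl6 and Prps1 also lay on chromosomes (12 and 3) other than those of the genes (7 and X). Cdv3l1 stood at 5.01 against Cdv3 at 35.84, the highest of 3 Cdv3 peaks. The transcribed pseudogenes were Abcc1-ps1 at 6.52 (score 26.61) and, among the ribosomal copies, Rps7-ps23 at 6.72. The Rps7-ps23 peak had a score of only 4.03, a peak p above 0.05.

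A few genes stood behind several names. Myl6, a myosin light chain, had 3 copies or like records, LOC102551071 at 8.15 and LOC100909726 and LOC100910474 at 5.35 each, against 9.04 for the peak listed as Myl6, on chromosome 12. Hmgb2, a chromatin protein, had Hmgb2-ps6 at 6.52 and Hmgb2l2 at 5.97, against 14.23 for Hmgb2. Pairs of copies stood for Fau, Rpl12, Rpl27a, Rpl35, Rpl37, Rpl8, Rps18 and Rps23, and a pair of like records for Sult1c2. Looked up were 32 genes known for many copies, of which 12 were listed under their own name. For 5 of the 32 a copy was recognised here by symbol or description (Hmgb2, Ppia, Hmgn2, Tpt1 and Ftl1). Of these 5, only Hmgb2 was listed under its own name. Gapdh, Eef1a1 and Actb had neither a peak under their own name nor a copy recognised in this way. Copies among the 115 names with neither a record nor a named gene could not be recognised. The treatment of reads that match several places is not given in the sources used, so whether a peak on a copy holds reads of the copy or of its source was not tested.

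A different kind of likeness appeared in the like records. Of 32, 25 lay on the chromosome of the gene they are described after and 7 on another. Those on the same chromosome had 45 peaks with a median fold of 5.99 and a median length of 185 bases, and all were on Ensembl transcripts. For 18 of the 25 the named gene was also listed, and in these 38 peaks could be set against it. In 18 of the 38, under 12 names, the named gene had a peak of exactly the same length. None of the 6 peaks of like records on another chromosome, the 6 of ribosomal copies or the 10 of other copies with a listed named gene had such a partner.

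Folds in the 18 equal-length pairs were close, with a median ratio of 1.02 (like record over named gene), a range of 0.738 to 1.74 and the higher fold on the like record in 11. The median score was 26.77 on the like record and 25.445 on the named gene. Many pairs held a peak with p above 0.05. In the Map3k1 pair (scores 4.22 and 3.05) and the 91-base Calcoco1 pair (10.08 and 6.09) both peaks did. Both peaks of the 273-base Abl1 pair, at folds of 3.38 and 3.42, did as well (8.74 and 9.57). Ccar1, a coactivator of transcription, had 3 equal-length pairs. LOC100911233 had folds of 24.24, 5.99 and 5.35 over 186, 164 and 162 bases, against 23.18, 5.05 and 5.12 for Ccar1. The Ccar1 peaks at 5.05 and 5.12 had scores of 10.5 and 4.18, a peak p above 0.05. The peaks of each pair were 1470209 to 1470211 bases apart on chromosome 20. For Nudc, a dynein-associated protein of nuclear movement, LOC100911422 had 36.93 over 204 bases and 9.76 over 315, against 21.23 and 7.73 for Nudc, at offsets of 674555 and 674556 bases on chromosome 5. For the tyrosine kinase Abl1, LOC100909750 had 7.21 and 3.38 against 7.41 and 3.42, and both pairs were 632194 bases apart on chromosome 3. For Calcoco1, LOC100912282 had 8.12 and 4.74 against 8.08 and 4.51, at offsets of 1118745 and 1118721 bases on chromosome 7. Of 5 genes with at least 2 pairs, these 4 kept their offset within 25 bases. The other was Nin, a centrosomal protein, whose LOC100911256 had 8.47 and 4.46 against 8.81 and 6.04 at offsets that differed by 3066 bases.

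Single pairs stood for Srcap, a chromatin remodelling ATPase (6.9 in the like record against 6.5), Mtf1, a zinc-sensing transcription factor of metal response (6.81 against 7.29), Ankrd12 (5.47 against 5.09), Marf1 (5.35 against 5.22), Lig1, a DNA ligase (3.98 against 4.94), Rad54l2 (3.91 against 4.6) and Map3k1, a kinase of the stress-activated cascade (3.36 against 3.29). The pairs lay 0.13 to 11.6 Mb apart. Scores did not always match as closely as folds: the Srcap-like peak had a score of 267.69, against 9 for the peak of Srcap. Whether the same reads were placed at both positions of a pair was not tested.

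**Figure D5:**
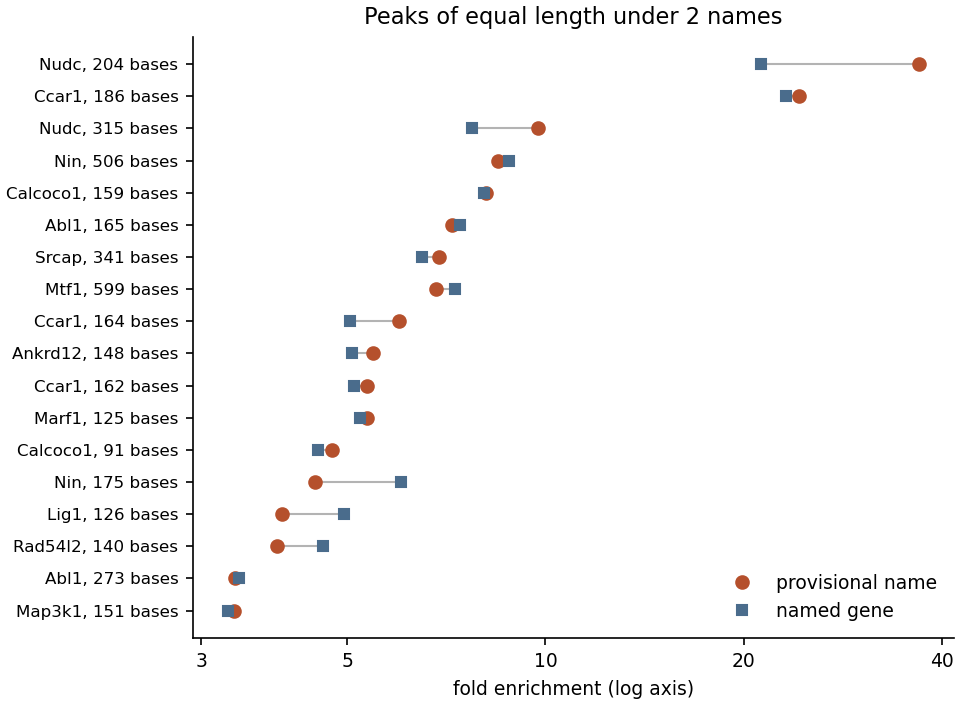
For 18 pairs of peaks of equal length, a circle gives the fold enrichment of the provisional-name peak and a square that of the named gene (log axis), labelled by gene and length. Circle and square lie close together in most pairs, and furthest apart in the 204-base Nudc pair (36.93 and 21.23).

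Equal-length peaks also occurred between provisional names. Counted were 8 pairs on the same chromosome, more than 10 kb apart, with folds within 1.5 times of each other. All lay within 2 Mb except the Myl6-like pair, which shared a description. Equal-length peaks of unlike names that lay further apart or on different chromosomes also exist and were not counted. AABR06090530.1 and AABR06090571.1 on chromosome 17 shared a 219-base peak (9.02 and 8.93) and a 215-base peak (6.11 and 6.18), both pairs 844.593 kb apart. LOC100910474 and LOC100909726, both Myl6-like, had the same length (456 bases), fold (5.35) and score (8.39). LOC100912599, similar to Ndufs6, had 8.35 over 185 bases and LOC679739, which is now Ndufs6 of mitochondrial complex I, 9.29 over 185 bases. The Fau-like LOC687780 and LOC100360647 had 5.35 and 5.22 over 402 bases. In LOC498276, LOC684871 and LOC500331 a single transcript was listed at 2 places of 1 chromosome with peaks of equal length.

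Like records on other chromosomes were 7 single peaks of 5.01 to 9.47. They included LOC100361838 at 9.47 against the spliceosomal gene Snrpe at 4.83, LOC498205 at 5.97 against the chaperone gene Dnajc14 at 5.45 and LOC100912393 at 5.08 against the decapping enzyme gene Dcp2 at 4.29. LOC102550797 had 5.08 against 10.01 for the scaffold gene Dlg5. The Dcp2 and Dlg5 folds were the highest of 3 and 8 peaks. The Snrpe peak had a score of only 10.46, a peak p above 0.05.

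The 85 names sorted as now named genes held 145 peaks with a median fold of 5.57 and a median length of 183 bases. Of these names 27 have an open reading frame, Kiaa or Riken symbol and 58 another symbol. Peaks of 2 or more were found in 35 of the 85 and in 0 of the 30 ribosomal copies, whose genes were shorter at the median. On Ensembl transcripts lay 35.9% of the peaks of now named genes. Of the 145 peaks 22 reached 10-fold (15.2%, against 17.3% of all listed peaks). After 4930488N24Rikl and Liat1 came Nap1l6 (26.42 over 963 bases of chromosome 7) and Cracd, an inhibitor of actin capping (22.17 over 868 bases of chromosome 14). Then followed Cfap298, a gene of ciliary motility (20.95), C19h19orf53 (18.06) and C19h16orf87 (17.89). The class holds names with a symbol that were not sorted as copies, and short genes were not excluded. The Nap1l6 peak came to 77.3% of its 1246-base gene. Of 84 genes in the class with a record on the peak's chromosome, 4 were under 1500 bases. Whether any of them is a copy was not tested.

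Virma, the scaffold of the m6A methyltransferase complex, had 16.77 over 273 bases at chr5:29805813-29806085. C12h12orf43 had 14.76, Hapstr1, a stress-response partner of the ubiquitin ligase HUWE1, 14.42, Bmt2, a sensor of S-adenosylmethionine, 14 and Trir, an RNA-processing nuclease, 13.18. Kiaa2012 had 6 peaks spread over 71 kb of chromosome 9, with folds of 3.57 to 13.1, and C3h9orf78 6 peaks over 8.27 kb of chromosome 3, with folds of 4.12 to 12.83. Their lower peaks included some of low score, such as 6.58 for the 3.57-fold peak of Kiaa2012.

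Shtn1, which encodes the axon outgrowth protein shootin-1, was split between a provisional and its own name. Its 2 peaks under RGD1311558 had folds of 12.22 over 54 bases and 5.83 over 95 bases, against a highest fold of 17.57 among 11 peaks listed as Shtn1, some of which lay between and on both sides of them. Dhrs7, a short-chain dehydrogenase gene, was likewise split, with 10.36 over 185 bases under RGD1565002 against 14.23 over 153 bases under Dhrs7 on chromosome 6. These were the only 2 of the 85 that were also listed under their current symbol.

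Names without a record and without a named gene numbered 115, with 156 peaks. The 68 contig names had a median fold of 5.85 and a median length of 191 bases, and the 47 others 6.65 and 186 bases. They held 11 of the 16 provisional-name peaks at 30-fold or more. Next after those already described were LOC683904 (26.08), AABR06082873.1 (24.43), LOC100363716 (24.02) and AABR06064925.1 (23.55). LOC683904 lay on chromosome 13 between peaks of Edem3, 36359 bases from one and 15069 from the other.

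Of these 115 names 26 had 2 or more peaks. LOC679641 had the most of any provisional name, 7 peaks over 36.5 kb of chromosome 5 with folds of 3.64 to 9.75. LOC684934 had 4 peaks over 7.95 kb of chromosome 1 (16.29, 5.56, 6.11 and 8.3), RGD1307500 had 4 over 18.7 kb of chromosome 8 (5.5, 11.02, 17.55 and 5.28) and LOC102554591 had 4 over 188 kb of chromosome 17 (8.28, 10.09, 7.13 and 5.44). Several peaks under 1 name were also found for 35 of 85 now named genes, 12 of 25 like records on the chromosome of the named gene, 2 of 22 copies of other genes and 0 of 30 ribosomal copies. These counts take no account of gene length. They include LOC498276 and LOC500331, the 2 copies of other genes, and LOC684871, where 1 transcript was listed at 2 places with peaks of equal length. The 7-base peak of RGD1566270, the shortest of the set, had a fold of 10.93 and a score of 434.15.

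Some names sat inside the listed span of a named gene. Of 281 names with a listed neighbour on both sides, 8 had the same gene on both. AABR06042923.1 lay 1227 bases from one Ddx1 peak and 1103 from the next on chromosome 6, with a fold of 5.24, against 5.09 and 5.2 in the peaks of Ddx1, an RNA helicase gene. AABR06027394.1 lay between peaks of Top1, a DNA topoisomerase gene, with 10.04, against 7.95 and 25.47 in Top1, and LOC685221 between peaks of Ylpm1 (4.35, against 5 and 6.4 in Ylpm1). LOC100912019, described after Spef2, lay 1676 bases from a peak of Spef2 itself, with 6.31 against 6.8. Around the mark of 10-fold, AABR06027394.1 at 10.04, and AABR06001142.1 and LOC102554591 at 10.09 each, lay just above it, and LOC100362814 (now D430041D05Rikl) and RGD1565370, both at 9.93, just below.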

How the data were processed

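The authors deposited 1 peak table made from 1 IP and 1 input library. Per the file headers it has the columns of the MACS peak caller: fold enrichment (a linear ratio of IP over local background), a p-value that the authors gave as a score (minus 10 times log10 p), and a false discovery rate in percent. Tools named in the submitters' processing notes are STAR, HISAT2 2.0.4 and cutadapt 1.9.3. Not given in the sources used here are the role of each aligner, the version of the caller, the annotation and the genome build, so deposited coordinates are those of an unnamed build. Starts were counted from 0 and are printed 1 higher.

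The members and lists were chosen with earlier results of these data known. Names were matched to the RefSeq gene table of GRCr8 by symbol, synonym, gene ID or transcript, in that order. That table holds no descriptions, so the planned parent rule was replaced: a named gene was read from the current symbol (ending in -ps or l with a digit) or from a list of descriptions written after the names were seen. LOC684828, whose description and record disagree, was left among now named genes and is not described. Protein comparison was planned and not run, and promoter windows of 300 bases (27457 genes, 97 of them provisional names) were aligned locally in its place (match 2, mismatch -3, gap open -5, gap extension -2), which was tested on simulated windows. Genes named in the text are, by rule, the 15 highest peaks, the 5 names with most peaks, the 3 longest and 3 shortest peaks, the 15 highest now named genes, the 10 highest copies with a named gene, the 4 highest of each gene type, genes with 2 or more copies and peaks next to 10-fold. Equal-length pairs, flanked names, strong neighbours and names with 4 peaks were chosen after their values were seen. With 1 library per group no test was made. Shares carry exact (Clopper-Pearson) 95% intervals. Biopython 1.88 did the alignment, SciPy 1.17.1 the intervals, pandas 2.3.3 the tables and matplotlib 3.10.9 the figures, under Python 3.11.15.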

Additional observations from a re-analysis of the deposited data

How the results depend on the processing

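No paired analysis was possible because the groups held 1 library each. The median fold and the shares at 10-fold and at p of at most 1e-10 kept within their 95% intervals with only peaks of 100 bases or more, only LOC names, only RGD names and, chosen after seeing the data, without copies and like records or only Ensembl transcripts. Counts fell at p of at most 1e-5 to 186 peaks under 145 names and at 1e-10 to 136 under 116. Merging regions within 200 bases left the peak count at 409, and the count of names was not recomputed. At p of at most 1e-5 the median fold was 9.1 in provisional-name peaks and 8.73 in the others, the share at 10-fold 41.9% and 37.4%, that at p of at most 1e-10 73.1% and 71.9%, and that at 30-fold 8.60% and 2.16%. With 1 value per gene (provisional names, then other names) the median fold was 6.52 and 6.63, the share at 10-fold 24.9% and 24.1%, that at p of at most 1e-10 39.6% and 38.7%, that at 30-fold 5.61% and 1.73%, and the median length 246 and 184 bases. The length median was 245 in provisional-name peaks of 100 bases or more and 185 without copies and like records. The share of 400 bases or more was 31.2% per gene and 19.8% without them. Ensembl transcripts held 80.2% of LOC and 49.2% of RGD peaks. Among the 133 names whose record lies on the peak's chromosome, 94.7% carry a symbol and 77.4% count as copies, by construction since unmatched names drop out. Matching by gene ID first changed neither share. With only copies and like records whose named gene was found, a definition chosen after seeing the data, 29.1% of names were copies.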
